A study of Mus musculus with 9 samples.

Results

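Heat shock proteins and their DNAJ partners keep other proteins folded. The set described here was every gene of the deposited table whose symbol begins with Hspa, Hspb, Hsp90, Dnaja, Dnajb or Dnajc and a number, together with Hsph1, Hspd1 and Hspe1, and does not end in -ps. It held 78 of 35112 genes. Of these, 71 were full genes and 7 were numbered pseudogene or related copies, which are given apart. The 71 comprised 13 Hspa, 3 Hsp90, 8 Hspb, 4 Dnaja, 13 Dnajb and 27 Dnajc genes, and Hsph1, Hspd1 and Hspe1. None was at 0 in every library, 66 had counts in every library, and 66 passed the filter on low counts and were tested. All 71 were measured in brains of wild-type C57BL/6 mice in 3 groups of 3 animals, taken at 72 hours: intracerebral haemorrhage with P7C3-A20 (ICH+P7C3-A20), intracerebral haemorrhage alone (ICH), and sham. P7C3-A20 derives from the aminopropyl carbazole P7C3 and is studied as a neuroprotective compound. The sources used here give neither the dose nor the brain region, and 3 animals per group limit every estimate.

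Heat shock proteins of the HSP70 family (Hspa genes) bind exposed hydrophobic stretches of a client protein in cycles of ATP hydrolysis. DNAJ proteins deliver the client and start hydrolysis, and the HSP110 proteins exchange the nucleotide. HSP90 takes over late folding of kinases and receptors, small heat shock proteins (Hspb genes) hold unfolding proteins without ATP, and Hspd1 with Hspe1 forms the folding chamber of the mitochondrion. In the nervous system the inducible members are known to appear in glia, vessels and stressed neurons after bleeding or ischaemia, while Hspa8 and Hsp90ab1 are abundant in neurons at rest.

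The stretches before the starts of 8 genes are shown because these genes carry the 2 stress elements most often tied to the family and include the inducible HSP70 pair and the ER chaperones that the results turn on. They were thus picked in part by result, and other members with a match, among them Hspb6, are not shown. The first element is the heat shock element, to which the heat shock factors bind, searched as GAANNTTC or TTCNNGAA. The second is the endoplasmic reticulum (ER) stress element, searched as CCAAT and CCACG with 9 bases of any kind between them, or the reverse complement (CGTGG, 9 bases, ATTGG). Each line gives the 150 bases before a RefSeq transcription start (GRCm38.p6), 5′ to 3′ on the strand of the gene, with the element in capitals. In Hspa1a, Hspa1b, Hspb1 and Hsph1 the capitals mark the heat shock element of 2 units, in Hspe1 that of 3 or more overlapping units, and in Hspa5, Dnajc3 and Hsp90b1 the ER stress element.
Hspa1a: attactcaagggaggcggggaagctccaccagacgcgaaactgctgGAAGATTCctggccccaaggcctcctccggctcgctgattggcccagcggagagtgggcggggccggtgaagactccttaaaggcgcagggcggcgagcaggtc
Hspa1b: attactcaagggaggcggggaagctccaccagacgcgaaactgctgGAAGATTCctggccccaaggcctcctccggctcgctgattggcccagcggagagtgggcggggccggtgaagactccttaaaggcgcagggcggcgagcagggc
Hspb1: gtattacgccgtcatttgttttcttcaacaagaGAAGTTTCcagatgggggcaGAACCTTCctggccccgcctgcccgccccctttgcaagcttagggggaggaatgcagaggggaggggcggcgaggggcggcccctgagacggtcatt
Hsph1: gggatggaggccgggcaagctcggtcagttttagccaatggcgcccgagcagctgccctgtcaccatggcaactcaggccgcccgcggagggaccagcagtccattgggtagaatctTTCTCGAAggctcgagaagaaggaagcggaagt
Hspe1: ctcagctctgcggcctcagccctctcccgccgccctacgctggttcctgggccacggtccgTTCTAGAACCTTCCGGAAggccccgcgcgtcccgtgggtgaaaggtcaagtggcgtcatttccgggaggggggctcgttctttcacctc
Hspa5: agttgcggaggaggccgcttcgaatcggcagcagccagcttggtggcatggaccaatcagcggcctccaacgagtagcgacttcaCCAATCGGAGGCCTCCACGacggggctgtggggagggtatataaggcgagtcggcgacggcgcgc
Dnajc3: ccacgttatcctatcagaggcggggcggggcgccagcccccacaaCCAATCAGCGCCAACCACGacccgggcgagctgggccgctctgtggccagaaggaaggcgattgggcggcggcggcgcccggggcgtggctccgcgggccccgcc
Hsp90b1: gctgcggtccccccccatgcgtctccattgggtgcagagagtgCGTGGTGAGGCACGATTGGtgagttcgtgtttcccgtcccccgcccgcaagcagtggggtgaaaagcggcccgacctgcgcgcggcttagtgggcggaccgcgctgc

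These windows lie at chr17:34972157-34972306 (Hspa1a, minus strand), chr17:34959239-34959388 (Hspa1b, minus), chr5:135887769-135887918 (Hspb1, plus), chr5:149636337-149636486 (Hsph1, minus), chr1:55087998-55088147 (Hspe1, plus), chr2:34771940-34772089 (Hspa5, plus), chr14:118937782-118937931 (Dnajc3, plus) and chr10:86705445-86705594 (Hsp90b1, minus). The RefSeq start equals the 5′ end of the gene in the deposited table for Hspa1a, Hspa1b and Hspb1 and lies 16 bases from it, in either direction, for Hspe1, 40 for Hsph1, 44 for Dnajc3, 65 for Hsp90b1 and 120 for Hspa5. The Hspa1a and Hspa1b windows were identical at 149 of 150 positions, with the element beginning 104 bases before the start in each.

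Windows were held for 57 of the 71 genes and for 27025 genes in all, and both strands of the 250 bases before each start were searched. A heat shock element of 2 units stood in 14 of the 57 (24.6%) and in 14.5% of all genes. One of 3 units (GAA, TTC and GAA or TTC, GAA and TTC, with NN between units, whose matches also count as 2 units) stood in 3 of the 57, Dnajb6, Hspd1 and Hspe1, and in 0.514% of all genes. By edgeR call in ICH against sham, the heat shock element of 2 units stood in 4 of 11 members called higher. It also stood in 4 of 8 called lower and in 6 of 35 tested and not called. The ER stress element stood in 3 of the 57, Hspa5, Hsp90b1 and Dnajc3, and in 0.130% of all genes. A match is a run of letters and says nothing of whether a factor was bound there.

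Libraries held 51537047 to 63324728 estimated counts, of which the family took 0.605% to 0.796%. Mitochondrially encoded transcripts took 9.14% to 18.5% of counts, and were lowest in ICH+P7C3-A20 2 (10.4%), ICH 3 (9.74%) and sham 3 (9.14%) of the libraries of their groups. In these 3 libraries 52, 48 and 44 of the 66 tested members reached the highest FPKM (fragments per kilobase of transcript scaled to library depth, as deposited) of their group, which is 78.8%, 72.7% and 66.7%, against 63.3%, 56.8% and 55.6% of all tested genes. Along the first principal component (58.0% of the variance) ICH libraries lay at 47.2 to 53.2 and sham libraries at -50.3 to -44.0. ICH+P7C3-A20 1 lay at -21.8, apart from ICH+P7C3-A20 2 and 3 at 5.15 and 6.14. Summed FPKM of 7 thalamic and hypothalamic markers was 11.6 to 20.9 in ICH+P7C3-A20, 17.3 to 115 in ICH and 7.50 to 113 in sham libraries, and that of 7 choroid plexus markers 45.0 to 1608, 16.7 to 2380 and 11.95 to 406, so these sums varied widely within groups.

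The labelled tissue carried the markers of brain. Summed FPKM of 10 neuron markers was 502 to 765 in ICH+P7C3-A20, 403 to 419 in ICH and 606 to 651 in sham brains, and 9 of the 10 were called lower in ICH than in sham. Microglia and macrophage markers summed to 198 to 369.7, 736 to 762 and 78.97 to 103 FPKM in the same order of groups, with 10 of 10 called higher in ICH than in sham. Astrocyte markers summed to 463 to 676, 1077 to 1171 and 267 to 289 FPKM, with 7 of 8 called higher. Oligodendrocyte markers (2 of 8 called higher) summed to 728 to 1763, 1797 to 2264 and 1218 to 1615 FPKM, and red cell markers (4 of 6 called higher) to 14.3 to 47.4, 51.3 to 109 and 11.04 to 30.2 FPKM. In bulk tissue, fewer cells of a type and less RNA per cell cannot be told apart.

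By level, the family was dominated by cytosolic HSP90 and Hspa8. Averages over sham brains were 321 FPKM for Hsp90ab1, 228 FPKM for Hspa8 and 149 FPKM for Hsp90aa1, the only members above 100 FPKM there. Together these 3 made 45.9% to 47.5% of the family's summed FPKM in ICH+P7C3-A20, 44.2% to 46.0% in ICH and 46.1% to 49.7% in sham brains. In sham brains 27 members lay from 10 to 100 FPKM, 29 from 1 to 10, 6 from 0.1 to 1 and 6 below 0.1. Summed FPKM of the 71 genes was 1209 to 1586 in ICH+P7C3-A20, 1335 to 1595 in ICH and 1312 to 1614 in sham brains, and the 3 ranges overlapped.

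**Figure D1:**
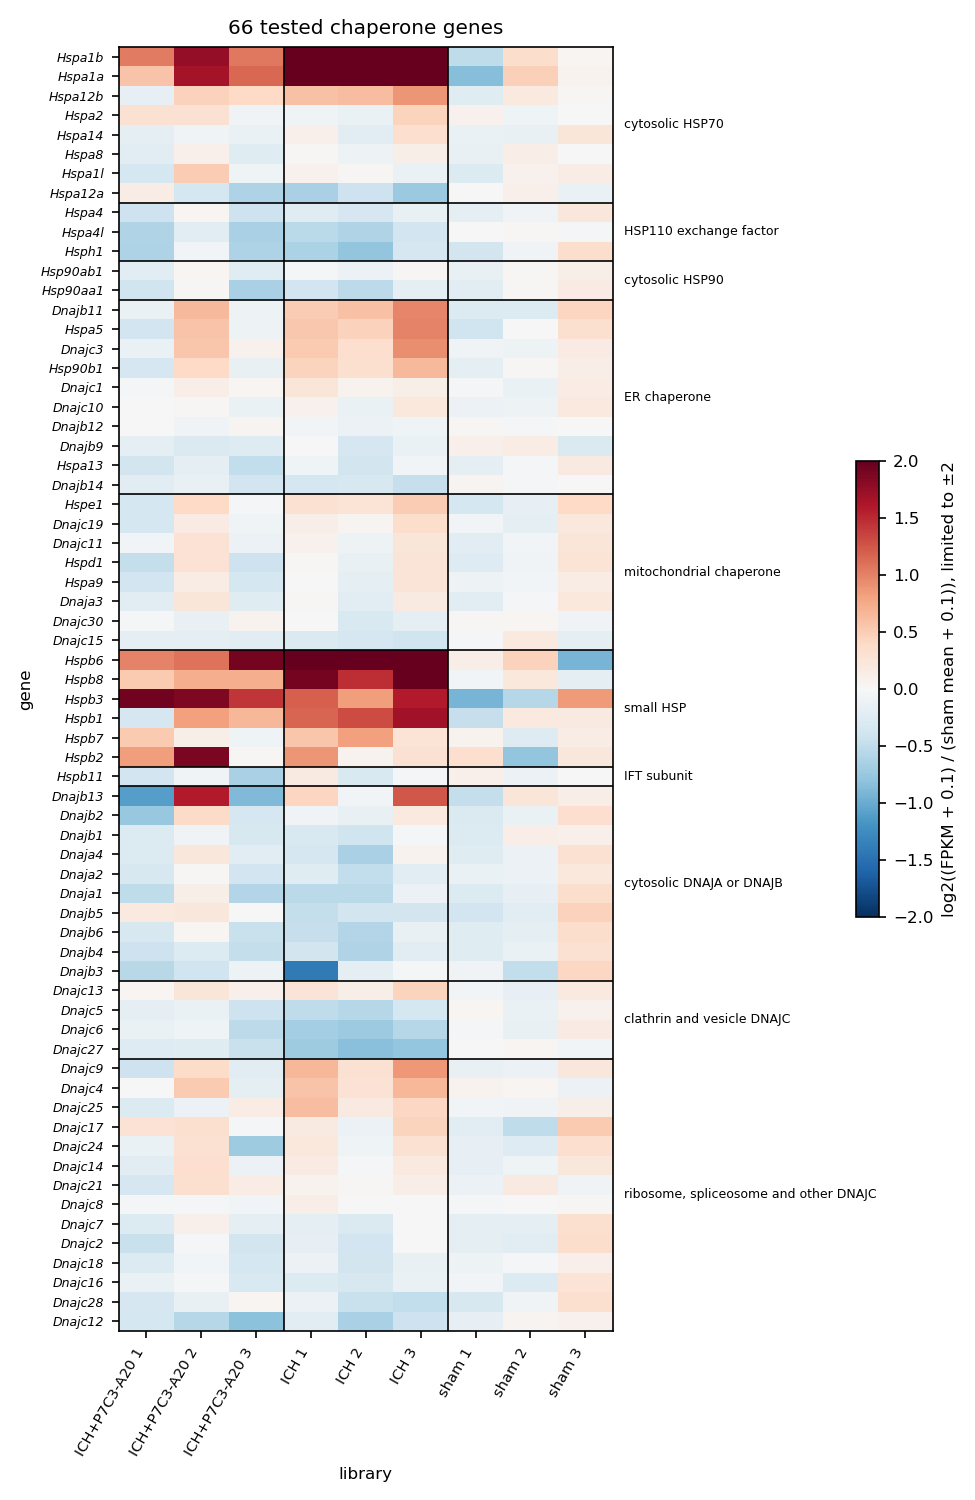
Heat map of the 66 tested members (rows, grouped by chaperone class) in 9 libraries (columns), as log2 of FPKM plus 0.1 relative to the sham mean, limited to 2 in either direction. Hspa1a, Hspa1b, Hspb1, Hspb6 and Hspb8 are red in all 3 ICH libraries, and the co-chaperones Dnajc5, Dnajc6 and Dnajc27 are blue there.

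Setting ICH against sham compared these transcripts between haemorrhage and sham brains. The stress-inducible HSP70 pair Hspa1a and Hspa1b, the small heat shock proteins Hspb1, Hspb6 and Hspb8, and the ER chaperones Hspa5, Hsp90b1, Dnajb11 and Dnajc3 rose, as did Hspa12b and Dnajc9. The HSP110 genes Hsph1 and Hspa4l, Hsp90aa1, the cytosolic and ER J-proteins Dnaja2, Dnajb4, Dnajb6 and Dnajb14, and the J-proteins Dnajc5, Dnajc6 and Dnajc27 fell. In all, edgeR called 21 of 66 members (31.8%) at an adjusted p under 0.05, beside 26.0% of the 21900 tested genes. Higher calls numbered 11 (16.7%, beside 15.6% of all genes) and lower calls 10 (15.2%, beside 10.4%). The median log2 change was -0.04 over the members and 0.00 over all genes. FPKM did not overlap between the groups for 14 members with ICH higher and 11 with ICH lower, beside 23.0% and 14.3% of all tested genes, so as a whole the family stood near the background. Higher calls were 6 without ICH 3 and 6 without sham 1, and lower calls 6 without ICH 2. Over all genes the higher calls in those fits were 2701 and 2765, beside 3418 in the main fit. The lower calls over all genes were 1354 without ICH 2, beside 2283 in the main fit. Hspa1a, Hspa1b, Hspb1, Hspb6, Hspb8, Dnajc5, Dnajc6 and Dnajc27 were called under each of 17 alternatives in scaling, filter, tool and libraries, and the other 13 under 7 (Hsp90aa1) to 16 (Hspa4l) of them. DESeq2 also called Hspa4 (adjusted p = 0.0193), Hspa12a (0.0198), Dnaja1 (0.0281), Dnajc18 (0.0329) and Dnajb5 (0.0445) lower. Over all genes DESeq2 called 2891 lower, beside 2283 by edgeR.

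**Figure D2:**
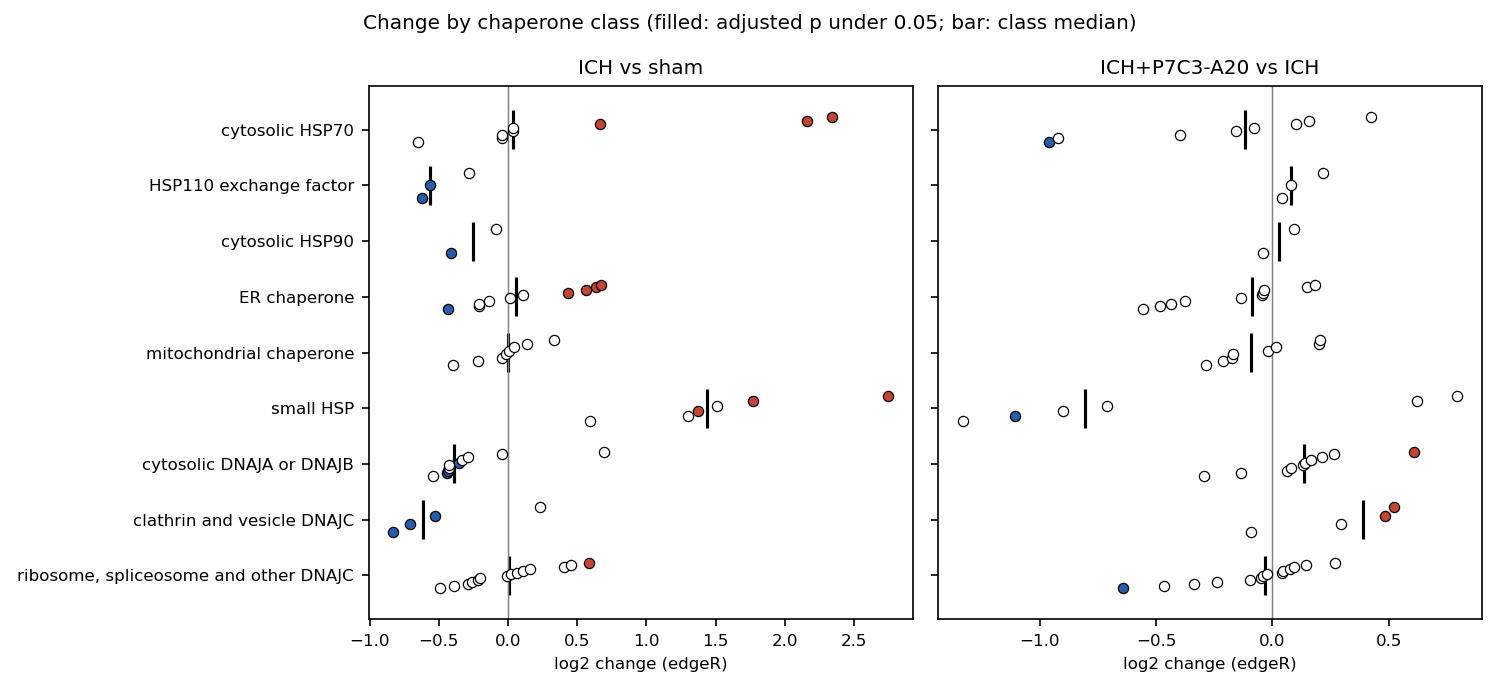
Log2 change by edgeR (x axis) of each tested member, in rows by chaperone class, for ICH against sham and ICH+P7C3-A20 against ICH. Filled points passed an adjusted p under 0.05 and the black bar is the class median: small heat shock proteins have a median of 1.44 in ICH against sham and -0.80 in ICH+P7C3-A20 against ICH. In the latter 4 of these 6 genes lie below 0, 2 lie above it and 1 is filled, and Hspb2, Hspb3 and Hspb7 were scarce.

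Setting ICH+P7C3-A20 against ICH compared haemorrhage brains with and without the compound. A rise or fall with P7C3-A20 means a difference between these groups, and its cause was not tested. The J-proteins Dnajb5, Dnajc27 and Dnajc6 rose, and Hspb8, Hspa1b and Dnajc9 fell. These are 6 of 66 members (9.09%), beside 8.74% of all tested genes, with 3 higher (4.55%, beside 2.69% of all genes) and 3 lower (4.55%, beside 6.05%). The median log2 change was -0.03 over the members and -0.01 over all genes. FPKM did not overlap for 4 members with ICH+P7C3-A20 higher and 8 with it lower, beside 10.7% and 16.4% of all tested genes. In edgeR the higher calls were 0 without any 1 of ICH+P7C3-A20 1, ICH 1, ICH 2 or ICH 3, with 3 to 5 members at an unadjusted p under 0.05 in those fits. Over all genes the higher calls there were 130, 86, 106 and 79 in the same order, beside 590 in the main fit. The lower calls were 1 without ICH+P7C3-A20 1, ICH 1 or ICH 3 and 7 without ICH+P7C3-A20 2. Over all genes the lower calls were 683, 597, 592 and 1213 in the same order, beside 1324 in the main fit. Hspb8 was called under each of the 17 alternatives and the other 5 under 8 (Dnajb5) to 12 (Dnajc27) of them. DESeq2 also called Hspb6 (adjusted p = 0.00345), Hsp90b1 (0.00862), Hspb1 (0.0101), Hspa1a (0.0233) and Hspa5 (0.0288) lower. It called more genes in general there, 2130 lower over all genes beside 1324 by edgeR. Between ICH+P7C3-A20 and sham, 3 of 66 members (4.55%, beside 5.32% of all genes) were called: Hspa1b and Hspb8 higher (3.03%, beside 4.58%) and Hspa4l lower (1.52%, beside 0.744%). The median there was -0.07 over the members and 0.03 over all genes, and FPKM did not overlap for 5 members with ICH+P7C3-A20 higher and 7 with it lower, beside 10.7% and 5.39% of all genes. Higher calls in that comparison were 1 without ICH+P7C3-A20 2, ICH+P7C3-A20 3 or sham 1, and lower calls were 2 without ICH+P7C3-A20 1 and 0 without ICH+P7C3-A20 3 or sham 1, with 4 and 11 lower members at an unadjusted p under 0.05. Over all genes the higher calls in those fits were 696, 496 and 609, beside 1002 in the main fit. The lower calls over all genes were 190, 42 and 44 in the same order, beside 163 in the main fit. Of the 17 alternatives, 14 called Hspa1b, 11 Hspa4l and 2 Hspb8. DESeq2 also called Hspa1a (adjusted p = 0.00261), Hspb6 (0.00337) and Hspb3 (0.0131) higher and Hspa13 (0.0283), Dnajb4 (0.0354) and Dnajc12 (0.0419) lower in that comparison. Over all genes DESeq2 called 1545 higher and 502 lower there, beside 1002 and 163 by edgeR. The 3 comparisons share libraries, so a fall in the second is measured against the same ICH brains as the rise in the first.

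**Figure D3:**
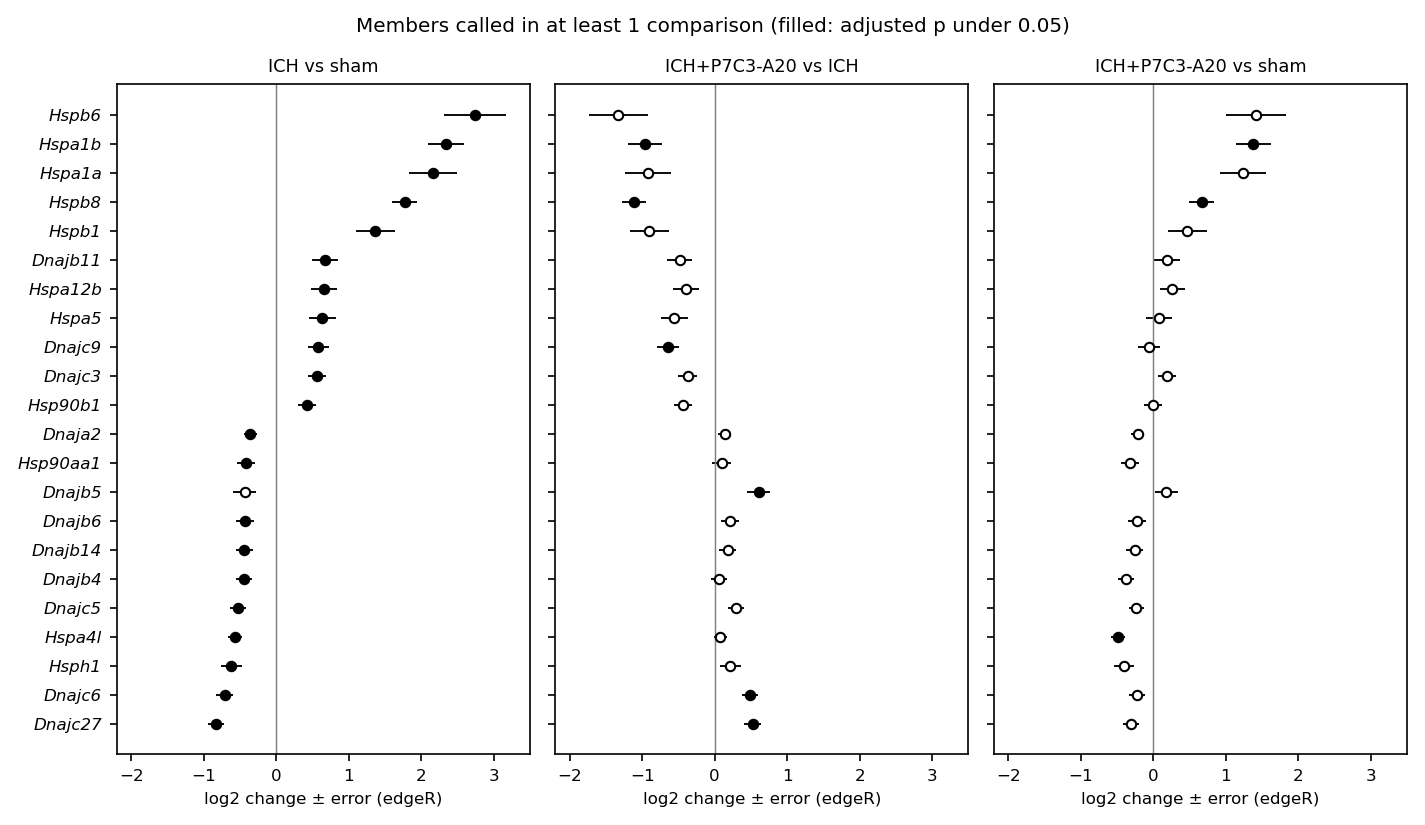
Log2 change with its error (its size over the root of the F statistic of edgeR, all 9 libraries) for the members called in at least 1 of the 3 comparisons, which share libraries. Filled points passed an adjusted p under 0.05: Hspb8 and Hspa1b are filled in all 3 panels.

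The inducible cytosolic HSP70 genes are Hspa1a (ENSMUSG00000091971, chr17:34969190-34972156) and Hspa1b (ENSMUSG00000090877, chr17:34956436-34959238), near-identical neighbours on the minus strand. Hspa1b had 2.11, 3.56 and 2.14 FPKM in ICH+P7C3-A20 brains, 4.603, 4.95 and 6.03 FPKM in ICH brains and 0.661, 1.28 and 1.01 FPKM in sham brains, so the 3 groups did not overlap. Its log2 change was 2.34 ± 0.25 in ICH against sham (5.07-fold, edgeR adjusted p = 7.40e-05), -0.96 ± 0.23 in ICH+P7C3-A20 against ICH (adjusted p = 0.0321) and 1.38 ± 0.24 in ICH+P7C3-A20 against sham (2.61-fold, adjusted p = 0.00792). Hspa1a had 1.81, 3.99 and 2.77 FPKM in ICH+P7C3-A20 brains, 5.21, 5.05 and 6.33 FPKM in ICH brains and 0.617, 1.69 and 1.26 FPKM in sham brains. Its groups did not overlap either, and it rose by a log2 change of 2.16 ± 0.33 in ICH against sham (4.48-fold, edgeR adjusted p = 8.18e-04). Its changes of -0.92 ± 0.31 in ICH+P7C3-A20 against ICH (edgeR adjusted p = 0.0971) and 1.24 ± 0.32 in ICH+P7C3-A20 against sham (adjusted p = 0.0514) did not pass in edgeR, and DESeq2 called both (0.0233 and 0.00261). Of the 50-base words in the transcripts of Hspa1b and Hspa1a, 62.3% and 60.3% occur in another gene, so reads could be split between the pair and their separate values are uncertain.

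Summed into 1 gene, an alternative chosen after the data were seen, the pair changed by 2.24 ± 0.27 in ICH against sham (edgeR adjusted p = 1.85e-04), by -0.94 ± 0.26 in ICH+P7C3-A20 against ICH (adjusted p = 0.0497) and by 1.305 ± 0.26 in ICH+P7C3-A20 against sham (adjusted p = 0.0177). The fall of Hspa1b with P7C3-A20 was not called by edgeR without ICH+P7C3-A20 1 (adjusted p = 0.114), ICH+P7C3-A20 3 (0.0906), ICH 1 (0.0761), ICH 2 (0.104) or ICH 3 (0.114). With only the compared groups fitted, edgeR called the fall of Hspa1a with P7C3-A20 (adjusted p = 0.0263). Without ICH+P7C3-A20 1 or sham 2 the Hspa1a difference from sham was called (edgeR adjusted p = 0.0250 and 0.0185). On the scale of log2(FPKM + 1) the ICH against sham change of Hspa1b was 1.65 and on quantile-normalized FPKM 1.49 (1.45 for Hspa1a), and its ICH+P7C3-A20 against sham call ended on log2(FPKM + 1) (limma adjusted p = 0.0532) and in edgeR on the compared groups alone (0.0544).

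Against this pair stood Hspa8, the constitutive cytosolic HSP70, with 195, 244 and 192 FPKM in ICH+P7C3-A20 brains, 230.3, 213 and 247 FPKM in ICH brains and 205, 249.9 and 228 FPKM in sham brains. The groups overlapped, and its log2 changes were -0.08 ± 0.12 in ICH+P7C3-A20 against ICH (edgeR adjusted p = 0.773) and -0.04 ± 0.12 in ICH against sham (adjusted p = 0.863). The summed FPKM of Hspa1a and Hspa1b was 2.01%, 3.09% and 2.55% of that of Hspa8 in ICH+P7C3-A20 brains, 4.26%, 4.70% and 5.01% in ICH brains and 0.623%, 1.19% and 0.998% in sham brains. The inducible pair stayed far below Hspa8 in every library, and every ICH share lay above the others. Of the 50-base words of Hspa8, 51.4% occur in another gene, so its level is uncertain. Hspa12b, an atypical HSP70 known from endothelial cells, had 1.92, 3.00 and 2.89 FPKM in ICH+P7C3-A20 brains, 3.28, 3.34 and 4.05 FPKM in ICH brains and 1.80, 2.48 and 2.19 FPKM in sham brains, and rose by 0.66 ± 0.18 in ICH against sham (log2, edgeR adjusted p = 0.0196). That call ended without ICH 2 (adjusted p = 0.0587), ICH 3 (0.0697) or sham 1 (0.0762). Beside it, 7 of 8 endothelial markers were called higher in ICH than in sham, with summed FPKM of 54.8 to 73.1 in ICH+P7C3-A20, 93.1 to 112 in ICH and 42.2 to 55.4 in sham brains, and their part in the result was not tested. Hspa2, Hspa12a, Hspa14 and Hspa1l, the last known from testis, were not called by edgeR in the 3 comparisons, and of them DESeq2 called Hspa12a in ICH against sham. Hspa1l shares 71.9% of its exonic bases with Gm10501 on the opposite strand. For Hspa2, known best from male germ cells, the log2 change was 0.04 ± 0.16 in ICH against sham (edgeR adjusted p = 0.898). Hspa12a, best known from neurons, had -0.65 ± 0.22 (edgeR adjusted p = 0.0555, DESeq2 0.0198, called under 6 of 17 alternatives) with 8.60, 10.1 and 8.05 FPKM in ICH brains, all below the sham values of 13.6, 14.6 and 12.4 FPKM.

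**Figure D4:**
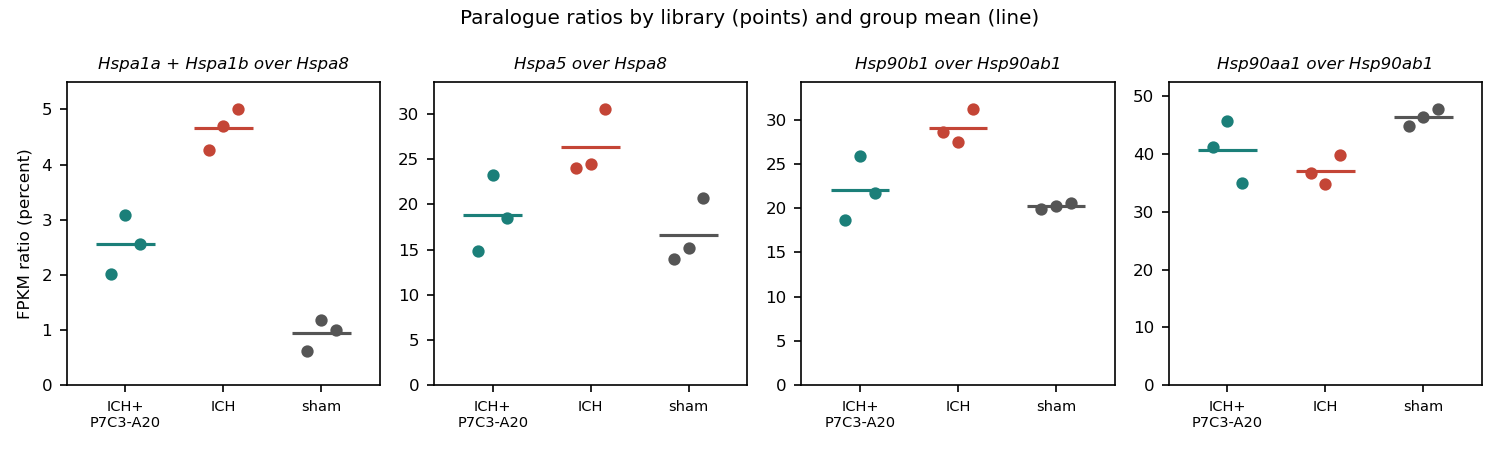
FPKM of 1 chaperone as a percentage of that of a constitutive paralogue, by library (points) with the group mean (line). The summed Hspa1a and Hspa1b share of Hspa8 lies between 4.26% and 5.01% in ICH brains, above all ICH+P7C3-A20 and sham brains, and Hsp90b1 over Hsp90ab1 between 27.4% and 31.2% in ICH brains.

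Small heat shock proteins had the highest class median in ICH against sham, with 3 of 6 tested members called by edgeR, all higher (beside 15.6% of all genes), 6 of 6 log2 changes above 0 and a median of 1.44. In ICH+P7C3-A20 against ICH 4 changes were below 0 and 2 above it (median -0.80), and edgeR called 1, lower (beside 6.05% of all genes). Both medians include the scarce genes Hspb2, Hspb3 and Hspb7. Hspb8, which works with the co-chaperone Bag3 in clearing misfolded proteins, had 7.29, 8.36 and 8.36 FPKM in ICH+P7C3-A20 brains, 19.3, 14.2 and 20.7 FPKM in ICH brains and 4.84, 5.87 and 4.39 FPKM in sham brains. No library of 1 group reached into another, and its log2 change was 1.77 ± 0.17 in ICH against sham (3.42-fold, edgeR adjusted p = 4.24e-05), -1.11 ± 0.17 in ICH+P7C3-A20 against ICH (adjusted p = 0.00684) and 0.67 ± 0.17 in ICH+P7C3-A20 against sham (1.59-fold, adjusted p = 0.0452). Its fall with P7C3-A20 was called under all 17 alternatives, with adjusted p up to 0.0313. Hspb6 (ENSMUSG00000036854, chr7:30552178-30555440), known for binding actin partners in smooth and heart muscle, had 5.502, 5.84 and 10.5 FPKM in ICH+P7C3-A20 brains, 22.3, 19.7 and 15.5 FPKM in ICH brains and 3.00, 3.77 and 1.37 FPKM in sham brains. It had the largest log2 change of the family in ICH against sham, 2.75 ± 0.43 (6.71-fold, edgeR adjusted p = 0.00126), and -1.33 ± 0.41 in ICH+P7C3-A20 against ICH without passing in edgeR (adjusted p = 0.0729), though its groups did not overlap. That fall was called under 6 of 17 alternatives, among them DESeq2 (adjusted p = 0.00345), limma on log2(FPKM + 1) (0.0227) and edgeR on the compared groups alone (0.0287). Hspb1 (ENSMUSG00000004951, chr5:135887919-135889563), whose promoter holds the pair of elements shown above, had 2.85, 6.46 and 5.80 FPKM in ICH+P7C3-A20 brains, 8.26, 9.06 and 11.8 FPKM in ICH brains and 2.61, 4.15 and 4.08 FPKM in sham brains. It rose by 1.37 ± 0.27 in ICH against sham (log2, 2.59-fold, edgeR adjusted p = 0.00425) and had -0.90 ± 0.27 in ICH+P7C3-A20 against ICH (adjusted p = 0.0654), where the groups did not overlap but the edgeR test was not passed. DESeq2 (adjusted p = 0.0101) and limma on quantile-normalized FPKM (0.0449) called that fall, and 3 of 17 alternatives did in all. Of its 50-base words 51.6% occur in the pseudogene Hsp25-ps1, so its values are uncertain.

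The other small members were scarce. Hspb3 and Hspb2, both known from muscle, averaged 1.03 ± 0.201 and 0.576 ± 0.432 FPKM in ICH+P7C3-A20 brains, 0.694 ± 0.206 and 0.329 ± 0.129 FPKM in ICH brains and 0.236 ± 0.233 and 0.212 ± 0.115 FPKM in sham brains (SD, n = 3), and edgeR called neither. In ICH+P7C3-A20 against sham Hspb3 had a log2 change of 2.13 (edgeR adjusted p = 0.0739), which DESeq2 called (0.0131), as did 4 of 17 alternatives in all. Hspb7 reached at most 0.149 FPKM, and Hspb2 shares 30.2% of its exonic bases with Cryab on the opposite strand. For Hspb8 the call in ICH+P7C3-A20 against sham ended under 15 of 17 alternatives (adjusted p = 0.0501 with RLE scaling in edgeR to 0.229 in limma on unfiltered log2(FPKM + 1)), among them leaving out any library of those groups but sham 2, and held in DESeq2 (0.00866) and in edgeR without sham 2 (0.0282). Without ICH+P7C3-A20 3, Hspb6 was called lower in ICH+P7C3-A20 than in ICH (edgeR adjusted p = 0.0406). Pericyte and smooth muscle markers, of which 5 of 8 were called higher in ICH than in sham, summed to 39.3 to 61.4 FPKM in ICH+P7C3-A20, 81.5 to 90.6 FPKM in ICH and 32.2 to 37.2 FPKM in sham brains. Their part, and that of the astrocyte markers given above, in the changes of small heat shock proteins was not tested. Hspb11, a subunit of intraflagellar transport in spite of its symbol, was not called, with -0.09 ± 0.21 in ICH against sham (log2, edgeR adjusted p = 0.798).

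**Figure D5:**
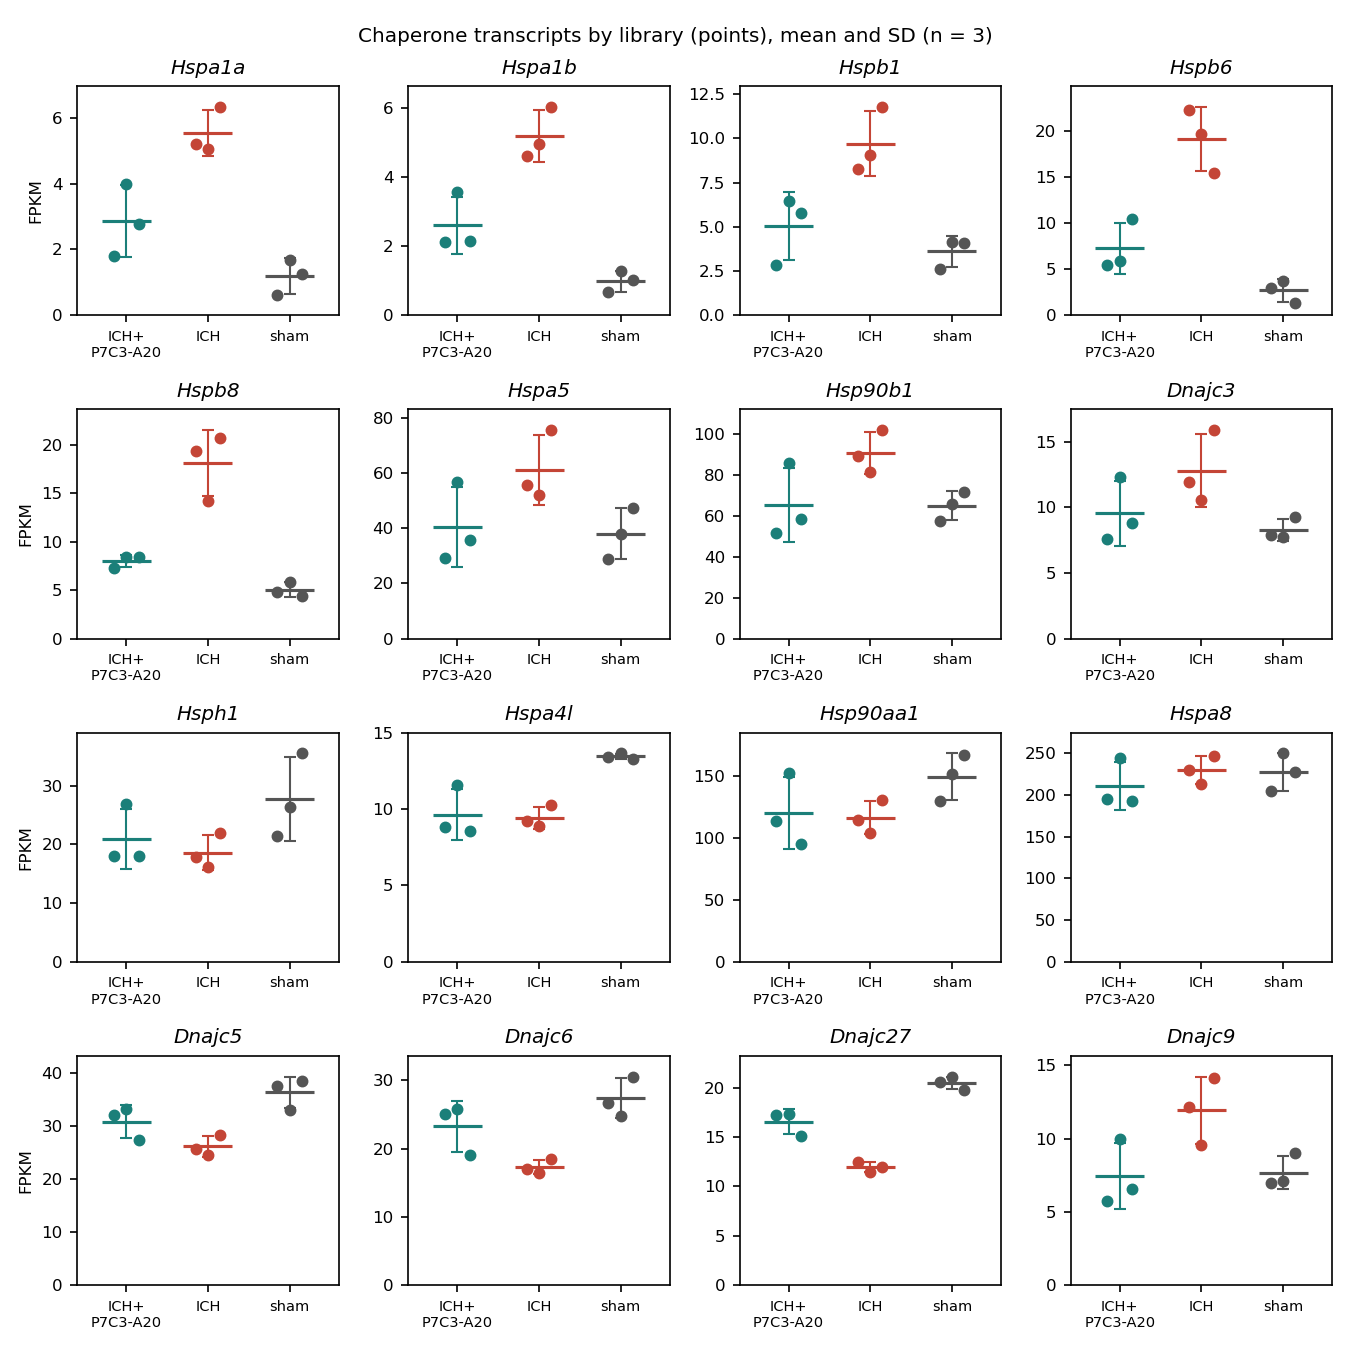
FPKM of 16 members in each library (points), with the group mean and SD (n = 3); each panel has its own axis from 0. Hspb8 lies between 14.2 and 20.7 FPKM in ICH brains and between 7.29 and 8.36 FPKM in ICH+P7C3-A20 brains, while Dnajc27 lies between 11.4 and 12.5 FPKM in ICH brains, below every other library.

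Among 10 ER chaperones, edgeR called 4 higher and 1 lower in ICH against sham, beside 15.6% and 10.4% of all genes. Hspa5, the HSP70 of the ER lumen also known as BiP, had 29.0, 56.6 and 35.5 FPKM in ICH+P7C3-A20 brains, 55.4, 52.0 and 75.5 FPKM in ICH brains and 28.7, 37.8 and 47.2 FPKM in sham brains. All ICH values exceeded all sham values, with a log2 change of 0.64 ± 0.19 (1.56-fold, edgeR adjusted p = 0.0284). Hsp90b1, the ER form of HSP90, had 51.5, 86.1 and 58.8 FPKM in ICH+P7C3-A20 brains, 89.2, 81.7 and 102 FPKM in ICH brains and 57.6, 66.2 and 71.8 FPKM in sham brains, and rose by 0.43 ± 0.12 in ICH against sham (log2, edgeR adjusted p = 0.0269). Dnajc3, a J-protein that also inhibits the kinase PERK, had 7.55, 12.3 and 8.78 FPKM in ICH+P7C3-A20 brains, 11.9, 10.5 and 15.9 FPKM in ICH brains and 7.90, 7.73 and 9.26 FPKM in sham brains. Its log2 change was 0.57 ± 0.13 in ICH against sham (1.48-fold, edgeR adjusted p = 0.00816). These 3 genes are the members with an ER stress element in the windows shown above. Dnajb11, the J-partner of Hspa5 in the lumen, had no such match and rose by 0.67 ± 0.18 (1.59-fold, edgeR adjusted p = 0.0183), with 14.5, 15.2 and 20.1 FPKM in ICH brains and 8.35, 8.40 and 13.7 FPKM in sham brains. Dnajb14, a J-protein in the ER membrane facing the cytosol, fell to 4.52, 4.601 and 4.16 FPKM in ICH brains, against 6.02, 5.62 and 5.73 FPKM in sham brains (log2 change -0.44 ± 0.12, edgeR adjusted p = 0.0201). Dnajb9, known as ERdj4 and as a target of the unfolded protein response, had -0.21 ± 0.17 (edgeR adjusted p = 0.441), and Dnajb12, Dnajc1, Dnajc10 and Hspa13 were not called either.

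With P7C3-A20, 0 of the 10 ER chaperones were called against ICH by edgeR, 4 had an unadjusted p under 0.05 and DESeq2 called 2. Over all 21900 tested genes edgeR called 8.74% there, and 5316 had an unadjusted p under 0.05. DESeq2 called 3364 genes there, beside 1914 by edgeR. Hsp90b1 had a log2 change of -0.44 ± 0.12 (edgeR adjusted p = 0.0551), Hspa5 -0.56 ± 0.19 (0.0912), Dnajc3 -0.37 ± 0.13 (0.0970) and Dnajb11 -0.48 ± 0.18 (0.121). In each of these the highest ICH+P7C3-A20 library was replicate 2, with the lowest mitochondrial share of its group, and without it Hsp90b1 (edgeR adjusted p = 0.0227) and Hspa5 (0.0319) were called lower. With mitochondrially encoded genes left out, edgeR also called Hsp90b1 lower (log2 change -0.46, adjusted p = 0.0488), but not Hspa5 or Dnajc3. Whether mitochondrial share itself bears on these values was not tested. In ICH against sham, edgeR calls ended for Hspa5 without ICH 1 (adjusted p = 0.0519), ICH 2 (0.0512), ICH 3 (0.112), sham 1 (0.109) or sham 2 (0.0557). For Hsp90b1 they ended without ICH 1 (0.0738), ICH 2 (0.0587), ICH 3 (0.0924) or sham 1 (0.104), for Dnajb11 without ICH 3 (0.0736), sham 1 (0.0747) or sham 2 (0.0656), and for Dnajb14 without ICH 1 (0.0558), ICH 3 (0.0870), sham 1 (0.0820) or sham 2 (0.0504). On log2(FPKM + 1), limma called none of these 5 genes (adjusted p = 0.105 for Hspa5, 0.120 for Hsp90b1, 0.0696 for Dnajc3, 0.0792 for Dnajb11 and 0.0518 for Dnajb14).

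A wider list of 24 ER folding and unfolded protein response genes, without the members, had 10 of 23 tested genes called higher and 0 lower by edgeR in ICH against sham (median log2 change 0.43), beside 15.6% of all genes called higher. In ICH+P7C3-A20 against ICH 8 were lower and 0 higher (median -0.28), beside 6.05% of all genes called lower. Calr, the lectin chaperone calreticulin, averaged 94.7 ± 15.1 FPKM in ICH+P7C3-A20, 151 ± 8.86 FPKM in ICH and 81.5 ± 8.48 FPKM in sham brains (SD, n = 3). Its log2 change was 0.84 ± 0.11 in ICH against sham (edgeR adjusted p = 2.93e-04) and -0.63 ± 0.11 in ICH+P7C3-A20 against ICH (adjusted p = 0.00918). Pdia3, the disulfide isomerase that works with calreticulin, had 0.96 ± 0.12 in ICH against sham and -0.70 ± 0.12 in ICH+P7C3-A20 against ICH (edgeR adjusted p = 2.42e-04 and 0.00917). Edem1, which hands misfolded glycoproteins to degradation, had 1.61 ± 0.14 and -0.95 ± 0.14 in the same comparisons (edgeR adjusted p = 2.81e-05 and 0.00684). In ICH+P7C3-A20 against sham it was the 1 gene of this list that edgeR called, higher (log2 change 0.66, adjusted p = 0.0237), as did 8 of 17 alternatives.

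In contrast to the inducible HSP70 pair, the nucleotide exchange factors of the HSP110 class had 0 higher and 2 lower edgeR calls among 3 genes in ICH against sham, beside 10.4% of all genes called lower. Hspa4l, the osmotic stress form, had 8.82, 11.6 and 8.54 FPKM in ICH+P7C3-A20 brains, 9.19, 8.86 and 10.2 FPKM in ICH brains and 13.4, 13.6 and 13.3 FPKM in sham brains. It lay below every sham library in all 6 haemorrhage libraries, with log2 changes of -0.57 ± 0.10 in ICH against sham (edgeR adjusted p = 0.00159) and -0.49 ± 0.10 in ICH+P7C3-A20 against sham (adjusted p = 0.0148). Between ICH+P7C3-A20 and ICH it differed by 0.08 ± 0.10 (log2, edgeR adjusted p = 0.687). Hsph1 (HSP105), whose promoter holds the heat shock element shown above, had 18.0, 26.9 and 18.0 FPKM in ICH+P7C3-A20 brains, 17.8, 16.1 and 21.9 FPKM in ICH brains and 21.4, 26.4 and 35.5 FPKM in sham brains, and fell by a log2 change of -0.62 ± 0.14 in ICH against sham (edgeR adjusted p = 0.00960). The ICH and sham ranges of Hsph1 overlapped. Hspa4 had -0.28 ± 0.10 (log2, edgeR adjusted p = 0.0504, DESeq2 0.0193). The call of Hspa4l in ICH+P7C3-A20 against sham ended without ICH+P7C3-A20 3 (edgeR adjusted p = 0.0809) or sham 1 (0.0653), and that of Hsph1 in ICH against sham ended in limma on log2(FPKM + 1) (adjusted p = 0.117).

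Cytosolic HSP90 has an inducible form, Hsp90aa1, and a constitutive one, Hsp90ab1. Hsp90aa1 had 114, 152 and 94.9 FPKM in ICH+P7C3-A20 brains, 114, 104 and 130.1 FPKM in ICH brains and 129.6, 151 and 167 FPKM in sham brains, and its log2 change in ICH against sham was -0.41 ± 0.13 (edgeR adjusted p = 0.0360). The ranges met at ICH 3 and sham 1, and the call ended in edgeR without ICH 1 (adjusted p = 0.107), ICH 2 (0.125), ICH 3 (0.0779), sham 1 (0.0511), sham 2 (0.0963) or sham 3 (0.0633) and in limma on log2(FPKM + 1) (0.233). Of its 50-base words 58.5% occur in another gene, mostly Gm12346. Hsp90ab1 had 276, 332 and 271 FPKM in ICH+P7C3-A20 brains, 312, 298 and 327 FPKM in ICH brains and 289, 326 and 349.5 FPKM in sham brains. Its log2 change was -0.09 ± 0.11 in ICH against sham (edgeR adjusted p = 0.616) and the groups overlapped. As a share of Hsp90ab1 FPKM, Hsp90aa1 was 41.2%, 45.8% and 35.1% in ICH+P7C3-A20, 36.7%, 34.9% and 39.8% in ICH and 44.9%, 46.4% and 47.8% in sham brains, so every ICH share lay below every sham share. The ER form Hsp90b1 stood at 18.7%, 25.9% and 21.7% of Hsp90ab1 in ICH+P7C3-A20, 28.6%, 27.4% and 31.2% in ICH and 19.9%, 20.3% and 20.5% in sham brains, with every ICH share above every sham share.

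The class of cytosolic DNAJA and DNAJB proteins, which here includes Dnajb13 of motile cilia, had 3 lower and 0 higher edgeR calls among 10 tested members in ICH against sham. Beside it, 10.4% of all genes were called lower. Of the 10 log2 changes 9, all but that of Dnajb13, were below 0, with a median of -0.39 beside 0.00 over all genes. Dnajb4 had 5.25, 5.81 and 5.00 FPKM in ICH+P7C3-A20 brains, 5.42, 4.58 and 6.03 FPKM in ICH brains and 5.95, 6.40 and 8.73 FPKM in sham brains (log2 change in ICH against sham -0.44 ± 0.11, edgeR adjusted p = 0.0134). Dnajb6, a strong suppressor of polyglutamine aggregation, had 9.10, 8.37 and 11.4 FPKM in ICH brains and 10.7, 10.98 and 16.2 FPKM in sham brains (-0.43 ± 0.12, edgeR adjusted p = 0.0267), and both genes overlapped between the groups. Of the 50-base words of Dnajb6, 35.8% occur in another gene, so its values are uncertain. Dnaja2, named outside the rule for named genes because it was called, had 36.2, 30.4 and 36.8 FPKM in ICH brains, all below the sham values of 39.0, 39.6 and 49.6 FPKM (-0.36 ± 0.09, edgeR adjusted p = 0.0154). Dnaja1 and Dnajb1, both classic heat-inducible partners of HSP70, had -0.43 ± 0.15 and -0.29 ± 0.11 in ICH against sham without passing (edgeR adjusted p = 0.0578 and 0.0905), and DESeq2 called Dnaja1 (0.0281). Sham 3, of lowest mitochondrial share, was the highest sham library for Dnajb4, Dnajb6, Dnaja2, Dnaja1 and Dnajb5, and the part of that share was not tested.

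Dnajb5, an HSP40 known for a redox-sensitive role in heart muscle, was the member with the largest rise with P7C3-A20 among those called. It had 21.7, 22.1 and 19.0 FPKM in ICH+P7C3-A20 brains, 13.5, 14.7 and 14.7 FPKM in ICH brains and 14.5, 16.2 and 26.0 FPKM in sham brains. The ICH+P7C3-A20 and ICH values did not overlap, with a log2 change of 0.61 ± 0.16 (1.52-fold, edgeR adjusted p = 0.0407), and the sham values spread across both. That call ended in edgeR without ICH+P7C3-A20 1 (adjusted p = 0.140), ICH+P7C3-A20 3 (0.0726), ICH 1 (0.143), ICH 2 (0.0835) or ICH 3 (0.140) and in limma on log2(FPKM + 1) (0.144). In ICH against sham, Dnajb5 had -0.43 ± 0.16 (edgeR adjusted p = 0.0710, DESeq2 0.0445) and was called by edgeR without sham 1 (0.0367), as was Dnajb1 (0.0492). Dnajb4 lost its ICH against sham call without ICH 2 (edgeR adjusted p = 0.0673), Dnajb6 without ICH 1 (0.0958), ICH 2 (0.105) or sham 3 (0.0696), and Dnaja2 without ICH 2 (0.0786) or ICH 3 (0.0598). In limma on log2(FPKM + 1) none of these 3 was called (adjusted p = 0.163, 0.246 and 0.226 for Dnajb4, Dnajb6 and Dnaja2). Dnajb13, which belongs to the radial spoke of motile cilia, ranged from 0.109 to 1.25 FPKM in ICH+P7C3-A20, 0.331 to 0.959 FPKM in ICH and 0.223 to 0.432 FPKM in sham brains and was called in none of the 3 comparisons (without ICH+P7C3-A20 2 it was lower in ICH+P7C3-A20 than in ICH, edgeR adjusted p = 0.0415). Ciliated ependyma markers summed to 8.495 to 43.8, 20.9 to 34.2 and 14.9 to 23.1 FPKM in the same order of groups, and their part was not tested.

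Of 4 tested J-proteins grouped here under clathrin coats and vesicles, edgeR called Dnajc27, Dnajc6 and Dnajc5 lower in ICH against sham, with no overlap of groups. Over all tested genes 10.4% were called lower and 14.3% were lower without overlap. Dnajc13, of early endosomes, was not called (0.23 ± 0.09 on the log2 scale, edgeR adjusted p = 0.0747). Dnajc6, the neuronal auxilin that strips clathrin from endocytosed vesicles with Hspa8, had 25.0, 25.8 and 19.0 FPKM in ICH+P7C3-A20 brains, 17.0, 16.4 and 18.5 FPKM in ICH brains and 26.8, 24.8 and 30.6 FPKM in sham brains. Its log2 change was -0.71 ± 0.11 in ICH against sham (edgeR adjusted p = 0.00117) and 0.48 ± 0.11 in ICH+P7C3-A20 against ICH (1.40-fold, adjusted p = 0.0272). Dnajc27, a J-protein with a Rab-like GTPase domain, had 17.2, 17.3 and 15.1 FPKM in ICH+P7C3-A20 brains, 12.5, 11.4 and 11.99 FPKM in ICH brains and 20.5, 21.1 and 19.8 FPKM in sham brains. The 3 groups were separate, with -0.83 ± 0.11 in ICH against sham (log2, edgeR adjusted p = 4.40e-04) and 0.52 ± 0.11 in ICH+P7C3-A20 against ICH (1.44-fold, adjusted p = 0.0205). Dnajc5, the cysteine string protein of synaptic vesicles, had 32.02, 33.2 and 27.4 FPKM in ICH+P7C3-A20 brains, 25.6, 24.6 and 28.4 FPKM in ICH brains and 37.6, 33.1 and 38.6 FPKM in sham brains. It fell by a log2 change of -0.53 ± 0.11 in ICH against sham (edgeR adjusted p = 0.00445), and its 0.30 ± 0.11 in ICH+P7C3-A20 against ICH did not pass (adjusted p = 0.113).

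Summed over Dnajc5, Dnajc6 and Dnajc27, FPKM was 74.3, 76.3 and 61.5 in ICH+P7C3-A20 brains, 55.0, 52.5 and 58.9 in ICH brains and 84.9, 78.97 and 88.9 in sham brains. These genes are those of the class called lower in ICH against sham, so a low ICH sum follows from their calls. Dnajc13, which was not called, is not in the sum. Summed neuron markers were also lowest in ICH brains (ranges above), with 2 of 10 called higher by edgeR in ICH+P7C3-A20 than in ICH, 7 by DESeq2 and 8 at an unadjusted p under 0.05 in edgeR. Their part in the values of Dnajc5, Dnajc6 and Dnajc27 was not tested. The rise with P7C3-A20 ended in edgeR for Dnajc27 without ICH+P7C3-A20 1 (adjusted p = 0.0689), ICH 1 (0.0621), ICH 2 (0.0693) or ICH 3 (0.0920) and for Dnajc6 without ICH+P7C3-A20 1 (0.0761), ICH 1 (0.104), ICH 2 (0.0858) or ICH 3 (0.102). Limma on log2(FPKM + 1) ended it for Dnajc6 (adjusted p = 0.138).

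Among 14 tested J-proteins of the ribosome, spliceosome and other sites, edgeR called Dnajc9 alone. Of all tested genes it called 26.0% in ICH against sham and 8.74% in ICH+P7C3-A20 against ICH. DESeq2 also called Dnajc18 lower in ICH against sham (adjusted p = 0.0329, edgeR 0.0502) and Dnajc12 lower in ICH+P7C3-A20 against sham (0.0419, edgeR 0.121). Dnajc9, a histone chaperone as well as an HSP70 partner and most abundant in dividing cells, had 5.72, 9.99 and 6.56 FPKM in ICH+P7C3-A20 brains, 12.2, 9.54 and 14.1 FPKM in ICH brains and 6.96, 7.09 and 9.003 FPKM in sham brains. It rose by 0.58 ± 0.15 in ICH against sham (log2, edgeR adjusted p = 0.0147) and fell by a log2 change of -0.64 ± 0.15 in ICH+P7C3-A20 against ICH (adjusted p = 0.0257), where ICH+P7C3-A20 2 overlapped with ICH 2. The rise ended in edgeR without ICH 1 (adjusted p = 0.0528), ICH 3 (0.0639) or sham 1 (0.0552), and the fall without ICH+P7C3-A20 1 (0.0918), ICH+P7C3-A20 3 (0.0724), ICH 1 (0.0948) or ICH 3 (0.106). Limma on log2(FPKM + 1) called neither (adjusted p = 0.0800 and 0.0944). The other 13 had log2 changes from -0.49 to 0.46 in ICH against sham, among them Dnajc8 of the spliceosome at -0.01 ± 0.11, with 26.8, 26.7 and 26.3 FPKM in ICH+P7C3-A20, 30.3, 27.2 and 27.2 FPKM in ICH and 26.7, 27.7 and 28.0 FPKM in sham brains.

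Mitochondrial chaperones gave 0 edgeR calls among 8 in each comparison, 0 by DESeq2 and 1 gene, in ICH against sham, at an unadjusted p under 0.05. Of all tested genes edgeR called 26.0% in ICH against sham, 8.74% in ICH+P7C3-A20 against ICH and 5.32% in ICH+P7C3-A20 against sham. Hspd1 (HSP60) had 31.8, 54.2 and 33.4 FPKM in ICH+P7C3-A20 brains, 45.4, 39.9 and 52.9 FPKM in ICH brains and 37.2, 42.3 and 53.7 FPKM in sham brains, and its log2 change was 0.01 ± 0.14 in ICH against sham (edgeR adjusted p = 0.981). Hspe1 (HSP10), which starts beside Hspd1 on the opposite strand and whose promoter carries the heat shock element of 3 units shown above, had 16.4, 27.7 and 20.4 FPKM in ICH+P7C3-A20 brains, 25.7, 25.3 and 29.8 FPKM in ICH brains and 16.3, 18.7 and 27.7 FPKM in sham brains. Its 0.33 ± 0.15 (edgeR adjusted p = 0.148) was called higher without sham 3 (0.0229). Hspa9, the HSP70 of the matrix, had -0.01 ± 0.10 (edgeR adjusted p = 0.953). In all 3 genes the library of lowest mitochondrial share was the highest of each group. Of the 50-base words of Hspd1, 44.8% occur in another gene, mostly the copy Hspd1-ps3.

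Regulators and partners outside the family were mostly not called, beside 26.0% of all tested genes called in ICH against sham and 8.74% in ICH+P7C3-A20 against ICH. Of 6 heat shock factors and regulators, 0 were called by edgeR or DESeq2 in any comparison, and 0 had an unadjusted p under 0.05. Of 30 co-chaperones without a J domain, edgeR called 1 higher and 4 lower in ICH against sham (DESeq2 also Bag5, lower, adjusted p = 0.0403) and 0 in ICH+P7C3-A20 against ICH (4 at an unadjusted p under 0.05, 0 by DESeq2). The higher one was Bag3, the partner of Hspb8, with 4.53 ± 0.758 FPKM in ICH+P7C3-A20, 8.17 ± 1.29 FPKM in ICH and 2.99 ± 1.21 FPKM in sham brains (SD, n = 3) and a log2 change of 1.37 ± 0.32 in ICH against sham (edgeR adjusted p = 0.00933). Its -0.80 ± 0.31 in ICH+P7C3-A20 against ICH did not pass (edgeR adjusted p = 0.145). Among the lower ones, Bag4 had -0.66 ± 0.13 and the HSP90 partner Chordc1 -0.51 ± 0.11 in ICH against sham (edgeR adjusted p = 0.00369 and 0.00739, ended by limma on log2(FPKM + 1) at 0.0522 and 0.142). Of 14 chaperonin and prefoldin genes edgeR called Pfdn1, and DESeq2 also called Vbp1 (-0.29, adjusted p = 0.0322). Pfdn1 stood at 0.34 ± 0.11 in ICH against sham (edgeR adjusted p = 0.0491), a call that ended without any 1 of the 6 libraries compared (0.0505 to 0.209). Of 13 other mitochondrial chaperones and proteases, Tomm70a, the import receptor that docks HSP70 and HSP90, and the protease Yme1l1 were lower in ICH against sham (-1.19 ± 0.15 and -0.37 ± 0.08, edgeR adjusted p = 2.30e-04 and 0.00844). Limma on log2(FPKM + 1) did not call Yme1l1 (adjusted p = 0.135), and DESeq2 also called Hscb higher there (adjusted p = 0.0337) and Tomm70a higher in ICH+P7C3-A20 against ICH (0.0184). In ICH+P7C3-A20 against sham edgeR called Tomm70a lower (log2 change -0.69, adjusted p = 0.0223), as did 10 of 17 alternatives.

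The 5 full genes that were not tested were nearly silent. Dnajb7, Dnajb8, Dnajc22, Dnajc5b and Hspb9 had 50, 13, 28, 16 and 54 counts over all 9 libraries and at most 0.373 FPKM. Among the 7 copies, Hspd1-ps3 (1.23 to 5.08 FPKM) was tested and not called by edgeR.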

How the data were processed

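Polyadenylated RNA from mouse brain was made into 9 stranded (dUTP) libraries, per the labels' protocols. The submitters' processing notes name cutadapt 1.9, HISAT2 2.0.4 and StringTie 1.3.4d. Not given in the sources used here are how the counts were made, the strand setting and the build. Per the file headers, the authors deposited FPKM and whole-number estimated counts for 35112 genes. All 78 member IDs were found in GENCODE M21 (GRCm38), 64 at the identical position and strand. Genes that overlap on opposite strands may share reads.

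The deposited estimated counts went to edgeR 4.0.16 in R 4.3.3 (filterByExpr with a minimum count of 10 and total of 15, TMM scaling, robust quasi-likelihood fit of 3 group means over 9 libraries, 6 residual degrees of freedom, two-sided). A call needed a Benjamini-Hochberg adjusted p under 0.05 over 21900 tested genes. The error of a log2 change is its size over the root of F. Overlap of groups was judged on deposited FPKM. Shared 50-base words were counted among GENCODE M21 transcripts, and promoters came from RefSeq (GRCm38.p6).

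Named genes were, per comparison, up to 8 called members per direction with a mean of at least 1 FPKM in a group, the 3 with the smallest p, a fixed set of 25, and 3 genes of each wider list. Members and lists were chosen with earlier results of these data known. Other genes named (among them Dnaja2, Hspa12a, Hspb2, Hspb3, Hspb7, Dnajc8, Dnajc12, Dnajc13, Dnajc18, Hspa13, Vbp1, Bag5 and Hscb) were chosen after their values were seen. Alternatives were RLE scaling, no filter, DESeq2 1.42.0, limma 3.58.1 on log2(FPKM + 1) or log2(FPKM + 0.1) of genes with a mean of at least 0.1 FPKM and on log2(FPKM + 1) unfiltered, a fit of only the groups compared, the replicate number as a block, and leaving out each library. Chosen after seeing the data were leaving out mitochondrially encoded genes, quantile-normalized FPKM, leaving out ICH+P7C3-A20 1 with sham 3, and summing Hspa1a and Hspa1b. Values of some single genes are not reported here. The fits were tested on simulated data. Figures used matplotlib 3.10.9 in Python 3.11.15.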

Additional observations from a re-analysis of the deposited data

How the results depend on the processing

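The groups of 3 libraries limit what can be called, and the estimated counts keep no record of how reads shared between gene copies were divided. The cause of the changes given here was not tested. Over the log2 changes of the named genes under every alternative run, 1434 kept direction and side of the threshold, 171 lost the call, 40 gained a call and 44 turned sign. The 1434 include changes that the main fit did not call and that stayed uncalled, so they do not count stable calls. In ICH against sham, members called higher numbered 11, and 6 (without ICH 3 or sham 1) to 13 (without sham 3) with 1 library left out, 6 with limma on log2(FPKM + 1), 7 with limma on log2(FPKM + 0.1) and 5 with limma on unfiltered log2(FPKM + 1). There, members called lower numbered 10, and 6 (without ICH 2) to 10 (without sham 1 or sham 3) with 1 library left out, 4 with limma on log2(FPKM + 1), 5 with limma on log2(FPKM + 0.1) and 3 with limma on unfiltered log2(FPKM + 1). There, all genes called numbered 5701, and 4075 (without ICH 3) to 5561 (without sham 3) with 1 library left out, 3208 with limma on unfiltered log2(FPKM + 1). In ICH+P7C3-A20 against ICH, members called higher numbered 3, and 0 (without ICH+P7C3-A20 1, ICH 1, ICH 2 or ICH 3, 3 to 5 at an unadjusted p under 0.05) to 3 (without ICH+P7C3-A20 2) with 1 library left out, 1 with limma on log2(FPKM + 1), 1 with limma on log2(FPKM + 0.1) and 0 with limma on unfiltered log2(FPKM + 1) (3 at an unadjusted p under 0.05). There, members called lower numbered 3, and 1 (without ICH+P7C3-A20 1, ICH 1 or ICH 3) to 7 (without ICH+P7C3-A20 2) with 1 library left out, 8 with DESeq2, 1 with limma on unfiltered log2(FPKM + 1), 5 with only the groups compared and 5 with limma on quantile-normalized FPKM. There, all genes called numbered 1914, and 571 (without ICH 2) to 1954 (without ICH+P7C3-A20 2) with 1 library left out, 3364 with DESeq2, 1143 with limma on log2(FPKM + 0.1) and 961 with limma on unfiltered log2(FPKM + 1). In ICH+P7C3-A20 against sham, members called higher numbered 2, and 1 (without ICH+P7C3-A20 2, ICH+P7C3-A20 3 or sham 1) to 3 (without sham 2) with 1 library left out, 1 with RLE scaling, 1 with no count filter, 5 with DESeq2, 0 with limma on log2(FPKM + 1) (5 at an unadjusted p under 0.05), 0 with limma on unfiltered log2(FPKM + 1) (6 at an unadjusted p under 0.05), 0 with only the groups compared (5 at an unadjusted p under 0.05), 1 with mitochondrially encoded genes left out and 1 with limma on quantile-normalized FPKM. There, members called lower numbered 1, and 0 (without ICH+P7C3-A20 3 or sham 1, 4 to 11 at an unadjusted p under 0.05) to 2 (without ICH+P7C3-A20 1) with 1 library left out, 4 with DESeq2, 0 with limma on log2(FPKM + 1) (4 at an unadjusted p under 0.05), 0 with limma on log2(FPKM + 0.1) (4 at an unadjusted p under 0.05), 0 with limma on unfiltered log2(FPKM + 1) (4 at an unadjusted p under 0.05), 0 with only the groups compared (8 at an unadjusted p under 0.05) and 5 with ICH+P7C3-A20 1 and sham 3 left out. There, all genes called numbered 1165, and 538 (without ICH+P7C3-A20 3) to 1434 (without ICH+P7C3-A20 1) with 1 library left out, 2047 with DESeq2, 332 with limma on log2(FPKM + 1), 521 with limma on log2(FPKM + 0.1), 135 with limma on unfiltered log2(FPKM + 1), 435 with only the groups compared, 481 with limma on quantile-normalized FPKM and 2222 with ICH+P7C3-A20 1 and sham 3 left out.

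Quantile-normalized FPKM split the calls in ICH against sham into 2849 higher and 3161 lower over all genes (3418 and 2283 by edgeR) and into 11 and 13 over the members, with the median of all genes at -0.07. Same-numbered libraries had correlations of -0.26 to 0.25 of their deviations from group means, and differently numbered ones -0.17 to 0.40. In ICH against sham each same-numbered value (0.11, 0.08 and 0.25) was the highest for its ICH library. In the other comparisons this held for replicate 1 only. With 3 libraries per group these values cannot settle whether the numbers pair the samples, and the main fit took them as unpaired. With the replicate number as a block, edgeR called 2 members higher and 5 lower in ICH+P7C3-A20 against ICH, 11 and 10 in ICH against sham and 2 and 1 in ICH+P7C3-A20 against sham (1697, 5326 and 944 of all genes). Under the block, Hspa1a was called in ICH+P7C3-A20 against ICH and against sham (edgeR adjusted p = 0.0400 and 0.0206), and Hspb1 in ICH+P7C3-A20 against ICH (0.0260).

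The log2 changes that turned sign belonged to members that edgeR did not call there (adjusted p of 0.589 and above). In ICH+P7C3-A20 against ICH they were those of Dnaja1 (-0.0035 to 0.22 with 1 library left out), Dnajb13 (-2.03 to 0.16 with 1 library left out and 0.16 with ICH+P7C3-A20 1 and sham 3 left out), Dnajb9 (-0.13 to 0.0652 with 1 library left out), Hsp90ab1 (0.13 with limma on quantile-normalized FPKM), Hspa4 (-0.0153 to 0.0729 with 1 library left out, -0.0173 with limma on log2(FPKM + 1) or limma on unfiltered log2(FPKM + 1) and -0.0183 with limma on log2(FPKM + 0.1)) and Hspa8 (0.0344 with limma on quantile-normalized FPKM). In ICH+P7C3-A20 against sham they were those of Dnajb13 (-1.34 to 0.85 with 1 library left out, -0.10 with limma on log2(FPKM + 0.1) and -0.0044 with limma on quantile-normalized FPKM), Hsp90b1 (-0.13 to 0.0902 with 1 library left out and 0.10 with ICH+P7C3-A20 1 and sham 3 left out), Hspa2 (-0.0035 with ICH+P7C3-A20 1 and sham 3 left out), Hspa5 (-0.12 to 0.22 with 1 library left out), Hspd1 (0.0018 with ICH+P7C3-A20 1 and sham 3 left out) and Hspe1 (-0.0713 to 0.22 with 1 library left out). In ICH against sham they were those of Hspa2 (-0.11 to 0.12 with 1 library left out, -0.0017 with limma on quantile-normalized FPKM and -0.0289 with ICH+P7C3-A20 1 and sham 3 left out), Hspa8 (-0.10 to 0.0668 with 1 library left out and 0.0168 with limma on log2(FPKM + 1) or limma on log2(FPKM + 0.1) or limma on unfiltered log2(FPKM + 1)), Hspa9 (-0.0695 to 0.0422 with 1 library left out, 0.0337 with limma on log2(FPKM + 1) or limma on unfiltered log2(FPKM + 1), 0.0344 with limma on log2(FPKM + 0.1) and 0.0075 with limma on quantile-normalized FPKM) and Hspd1 (-0.0709 to 0.0901 with 1 library left out, -0.0126 with RLE scaling and -0.0089 with DESeq2).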
